A study of Homo sapiens with 24 samples.

Results

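The genes of the integrin and laminin chains were examined in CAGE-Seq libraries of 4 established cell lines of glioblastoma, namely DBTRG-05MG, T98G, U87MG, and U251MG. The members were the genes of the deposited table whose Ensembl identifier maps to the symbol of an integrin alpha or beta chain or of a laminin alpha, beta, or gamma chain. There were 38 such genes among 43037, 26 for integrin chains and 12 for laminin chains, and 37 of them are described here. CAGE-Seq reads the 5′ ends of capped transcripts, and the values are tags per gene as counts per 1000000 tags of a library (CPM). Each line was present as 2 stable transductants that had both been selected with puromycin. The “WWOX” variant had received the GIPZ lentiviral system with a CMV promoter (pLenti-GIII-CMV-GFP-2A-Puro) to raise the tumor suppressor WWOX, and the “Vec” variant had received Puro-Blank Lentivirus. Each of the 8 groups held 3 libraries, 24 in all, which the study describes as biological replicates. The selection is described as clonal and the number of selections per variant is not given in the sources used here, so an effect of the variant and of its selected cells cannot be told apart, and p-values measure only the spread between libraries of a group. The libraries held 10756072 to 16953689 tags on genes, so that 3 tags, taken here as the most that a count of 0 allows, equaled 0.177 to 0.279 CPM. This limit covers counting error only.

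Integrins are receptors of the cell surface in which an alpha chain pairs with a beta chain, and the pair decides whether the receptor binds laminin, collagen, or proteins with an RGD sequence such as fibronectin and vitronectin. Laminins are large secreted proteins of the basement membrane, built from an alpha, a beta, and a gamma chain, and the laminin-binding integrins are among their receptors. In the brain, laminins surround blood vessels, and cells of glioblastoma are known to migrate along vessels and to attach to their basement membrane.

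Of the 5 members described that passed the test between “Vec” and “WWOX” in at least 1 line, LAMA1, LAMA5, LAMB3, ITGA6, and ITGA11, RefSeq promoter windows on GRCh38.p14 were found for 4. In all, 26 of the 37 members had a window. The stretches printed here show where transcripts of these 4 genes are annotated to begin, since CAGE-Seq counts 5′ ends, and each is the 120 bases before an annotated start, written 5′ to 3′ on the strand of the gene. They lie at chr2:172427216-172427335 on the + strand for the first start of ITGA6, chr2:172427466-172427585 on the + strand for its second start, chr20:62367313-62367432 on the - strand for LAMA5, chr15:68432164-68432283 on the - strand for ITGA11, chr1:209652426-209652545 on the - strand for the first start of LAMB3, and chr1:209651375-209651494 on the - strand for its last start. The annotation has no exon of the gene itself in these stretches, except for 5 bases in the second stretch of ITGA6 and 20 bases in that of the last start of LAMB3. A second start of LAMB3 is not printed. Its stretch lies at chr1:209652330-209652449 on the - strand, with 57 of the 120 bases in exons of the gene. Exons of other genes were not looked up. Capitals mark the AP-1 motif TGANTCA, the GC box GGGCGG, and the TATA box TATAAA, each on either strand.
ITGA6, first start: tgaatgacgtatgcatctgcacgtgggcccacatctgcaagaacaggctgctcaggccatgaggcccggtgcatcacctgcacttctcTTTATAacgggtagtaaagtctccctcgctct
ITGA6, second start: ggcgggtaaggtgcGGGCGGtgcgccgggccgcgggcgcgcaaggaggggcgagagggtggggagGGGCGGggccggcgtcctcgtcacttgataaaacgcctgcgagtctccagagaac
LAMA5: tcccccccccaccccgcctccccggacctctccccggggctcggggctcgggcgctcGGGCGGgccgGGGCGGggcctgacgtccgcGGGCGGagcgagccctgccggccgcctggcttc
ITGA11: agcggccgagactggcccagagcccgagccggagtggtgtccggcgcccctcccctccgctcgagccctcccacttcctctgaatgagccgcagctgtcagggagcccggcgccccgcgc
LAMB3, first start: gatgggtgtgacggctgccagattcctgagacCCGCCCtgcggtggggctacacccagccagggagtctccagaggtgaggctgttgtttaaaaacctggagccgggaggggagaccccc
LAMB3, last start: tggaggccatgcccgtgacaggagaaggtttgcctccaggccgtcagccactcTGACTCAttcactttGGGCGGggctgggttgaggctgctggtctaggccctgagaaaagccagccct
The windows differed in their motifs. The first start of ITGA6 had TATAAA on the opposite strand at positions -32 to -27, counted back from the start, and the second start had GC boxes. Within the stretch shown, LAMA5 had 3 GC boxes, with a GC content of 82.8% over the 250 bases before its start, and ITGA11 had none of the 3 motifs. The last start of LAMB3 had AP-1 at positions -67 to -61. Over the 250 bases before each start, AP-1 stood in 6.57% of 35116 RefSeq promoters and in 2 of the 33 windows of members, those of LAMA3 and LAMB3. The GC box stood in 42.6% of all promoters and in 17 of the 33 windows, and the TATA box in 10.7% and in 2 windows, those of ITGA6 and ITGB1. These matches describe letters only, and the deposited values are sums per gene that do not separate starts.

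The lines used different sets of chains. Of the 37 members, 26 reached 5 CPM in at least 1 library and were tested, 17 integrin and 9 laminin chains, among 12327 genes tested in all. The other 11 stayed at or below 3.18 CPM, namely ITGA1, ITGA10, ITGA2B, ITGAD, ITGAL, ITGAM, ITGB2, ITGB6, ITGB7, LAMA3, and LAMC3. They include ITGB2, the beta chain of leukocyte integrins, and ITGA2B, the platelet chain. ITGAE, an alpha chain grouped with those of leukocytes, was not among them and was at 12.9 to 126 CPM over the 24 libraries. 12 members reached 5 CPM in all 4 lines, 7 in 3 lines, 2 in 2 lines, and 5 in a single line. Those 5 were LAMA1 and ITGB3 in U87MG, ITGA8 and LAMB4 in T98G, and ITGA9 in U251MG, so these were tested only because of the line in which they were high.

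**Figure D1:**
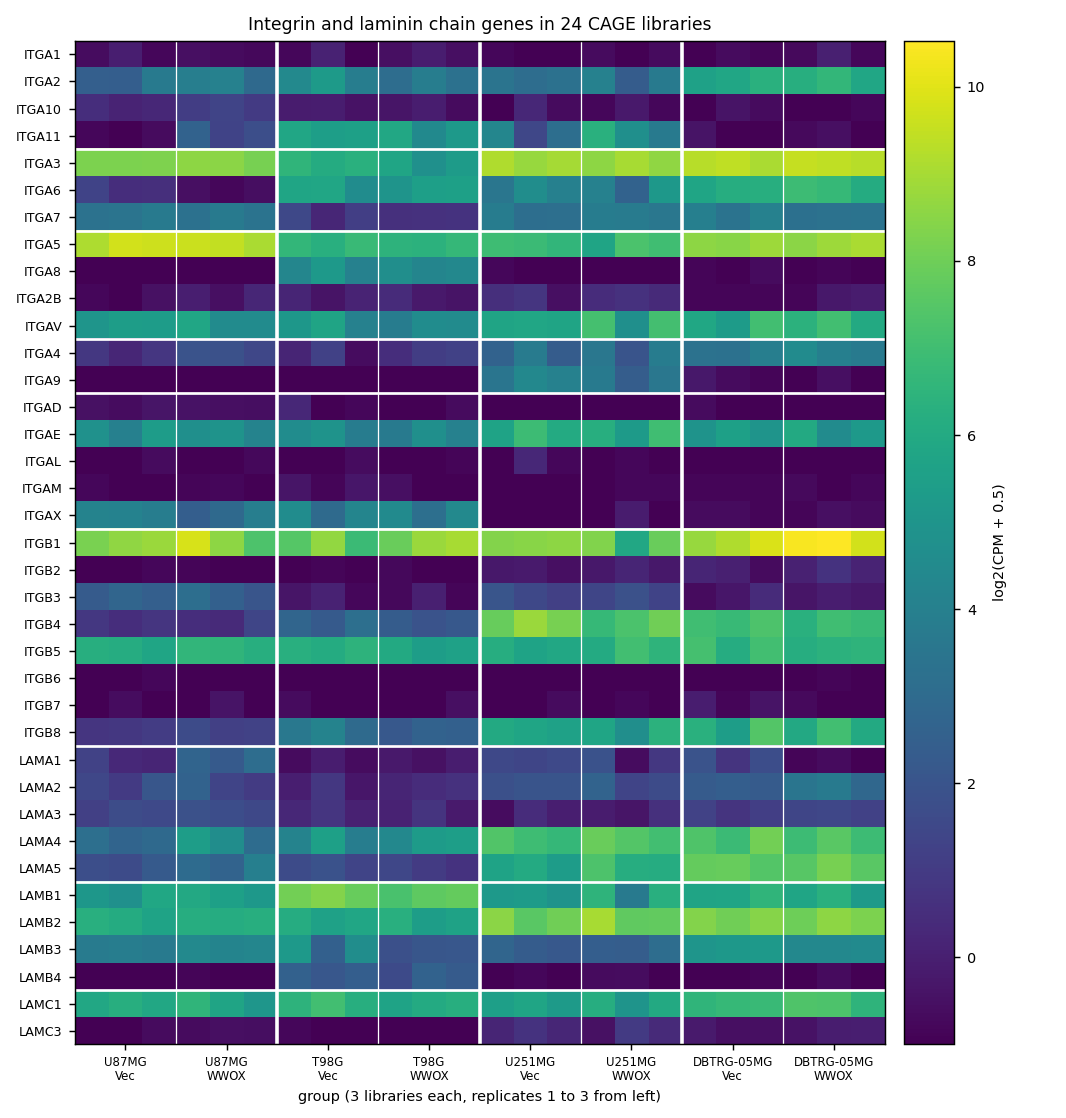
Level of each of the 37 members as log2(CPM + 0.5), by color, in each of the 24 libraries, which are grouped along the x axis by line and variant with replicates 1 to 3 from left. Thick vertical lines separate the cell lines and horizontal lines the roles of the chains; blocks of color change at the borders between lines more than at those between variants, and the 11 members that were not tested stay at or below 3.18 CPM in every library.

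The level of most chains differed among the lines. The lines were grown in different media, MEM for T98G, EMEM for U87MG and U251MG, and RPMI-1640 for DBTRG-05MG, so line and medium cannot be told apart, except that U87MG and U251MG shared one. Among the “Vec” libraries, 23 of the 26 members tested differed among the 4 lines (limma F test, adjusted p under 0.05), where 66.9% of all genes tested did. Without the 5 members that were tested because of a single line, the count was 18 of 21. The exceptions were ITGB1, the beta chain shared by most integrins (adjusted p = 0.107), ITGAV, the alpha chain of vitronectin receptors (0.282), and ITGB5, one of its partners (0.160), for which the F test did not pass, although ITGB1 was lower in T98G than in DBTRG-05MG as a pair (log2 difference -1.37, adjusted p = 0.0324). Taken in pairs, U87MG and T98G differed in 15 members, where 39.8% of all genes differed, and U87MG and U251MG in 14 (38.6%). U87MG and DBTRG-05MG differed in 13 (44.1%), T98G and U251MG in 22 (32.4%), T98G and DBTRG-05MG in 18 (41.2%), and U251MG and DBTRG-05MG in 11 (31.6%). These pairs share their “Vec” libraries, so the counts are not independent. The counts also include the 5 members tested because of a single line, which give them no support. CPM are not divided by length and depend on each gene's own 5′ ends, so levels are compared between lines, and a rank by mean CPM serves below only to choose genes to show.

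Among the laminin alpha chains, LAMA5, a chain of vessel and epithelial basement membranes, was highest in DBTRG-05MG “Vec” (210 ± 29.8 CPM, SD, n = 3) and lower in U251MG (53.0 ± 12.6), U87MG (3.27 ± 0.883), and T98G (2.65 ± 0.580). The step from DBTRG-05MG to U251MG was 1.95 on the log2 scale (SE 0.33, adjusted p = 7.13e-05 with limma), and that from U251MG to U87MG was 3.67 (adjusted p = 4.19e-09), while U87MG and T98G were not separated (0.26, adjusted p = 0.572). LAMA4, the chain of vessel and muscle laminins, was at 103 to 166 CPM in U251MG “Vec” and at 117 to 271 CPM in DBTRG-05MG “Vec”, against 14.3 to 46.6 CPM in T98G and 6.03 to 8.66 CPM in U87MG. Both chains were thus high in U251MG and DBTRG-05MG. LAMA1, the chain of the embryonic laminin, did not exceed 3.34 CPM in a “Vec” library of any line.

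Among the laminin beta chains, LAMB1 was at 227, 273, and 333 CPM in T98G “Vec” and at 27.0 to 92.6 CPM in the “Vec” libraries of the other lines. The step from T98G to DBTRG-05MG, the next in order, was 2.29 on the log2 scale (SE 0.39, adjusted p = 5.69e-05 with limma), and the other 3 lines were not separated from their neighbors. LAMB2, which can take its place in the trimer, divided the lines as LAMA4 and LAMA5 did, with 57.7 ± 11.4 CPM in T98G and 65.1 ± 12.8 CPM in U87MG against 274 ± 86.6 CPM in U251MG and 313 ± 47.2 CPM in DBTRG-05MG (SD, n = 3). LAMB4, a chain of little known function, was at 3.82 to 5.48 CPM in T98G “Vec” and at 0 to 1 tag in every “Vec” library of the other lines. LAMC1, the gamma chain of most laminins, ran from 38.6 CPM to 132 CPM over the 12 “Vec” libraries. LAMB3 is known as a partner of LAMA3 in the laminin of epithelial basement membranes, and LAMA3 itself reached at most 3.18 CPM.

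Among the integrins that bind laminin, ITGA3 was lowest in T98G “Vec” (79.6 ± 12.2 CPM) and higher in U87MG (306 ± 6.06), U251MG (501 ± 71.9), and DBTRG-05MG (616 ± 77.8). The step from T98G to U87MG was 1.95 on the log2 scale (SE 0.28, adjusted p = 5.08e-06 with limma), and the other neighbors in this order were not separated. ITGA6 ran from 1.30 ± 0.597 CPM in U87MG “Vec” to 66.7 ± 11.0 CPM in DBTRG-05MG “Vec”. ITGB4, the beta chain of hemidesmosomes and the partner of ITGA6, was at 0.927 to 1.35 CPM in U87MG “Vec”, 4.32 to 8.72 CPM in T98G, 110 to 160 CPM in DBTRG-05MG, and 233 to 441 CPM in U251MG. All 3 steps in that order passed the test (adjusted p at most 0.00689 with limma). U87MG was thus the line with the lowest levels of ITGA6 and ITGB4 alike, and no “Vec” library of U87MG reached the lowest one of another line for either gene.

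The chains that bind fibronectin, collagen, and other ligands also went with the line. ITGA5, the alpha chain of the fibronectin receptor, was at 549, 845, and 802 CPM in U87MG “Vec”, 352 to 459 CPM in DBTRG-05MG, 94.6 to 123 CPM in U251MG, and 76.5 to 112 CPM in T98G. The order U87MG, DBTRG-05MG, U251MG held against the spread (adjusted p = 0.0153 and 0.000360 with limma), and U251MG and T98G were not separated. ITGA8, an RGD-binding alpha chain, was at 16.1 to 36.4 CPM in T98G “Vec” and at no more than 0.132 CPM in the other “Vec” libraries. ITGA9, which binds tenascin and osteopontin, was at 10.5 to 20.5 CPM in U251MG “Vec”, at no more than 0.327 CPM in DBTRG-05MG, and at 0 tags in U87MG and T98G. ITGA11, a collagen receptor of fibroblast-like cells, was at 43.9 to 56.9 CPM in T98G “Vec”, 2.23 to 19.1 CPM in U251MG, and no more than 0.262 CPM in U87MG and DBTRG-05MG. ITGB8, a partner of ITGAV that activates TGF-beta, was at 1.21 to 1.54 CPM in U87MG “Vec”, 7.47 to 17.4 CPM in T98G, 48.6 to 63.7 CPM in U251MG, and 42.5 to 172 CPM in DBTRG-05MG.

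ITGAX, known from myeloid cells, was at 14.1 to 17.3 CPM in U87MG “Vec” and 7.52 to 23.7 CPM in T98G “Vec”, and at no more than 0.131 CPM in the other “Vec” libraries. Of 10 markers of leukocytes, 5 were at 3 tags or fewer in every library, PTPRC and TYROBP among them, and CSF1R alone reached 5 CPM, in U87MG. Their summed level was 6.18 to 16 CPM in U87MG and 0.703 to 1.39 CPM in T98G, and its part in the level of ITGAX was not tested. Of 6 markers of platelets, 5 were at 3 tags or fewer in every library. Among 11 markers of glial and glioblastoma cells, EGFR, CD44, and VIM were present in every library, at no less than 72.1, 678, and 13.5 CPM, whereas GFAP ran from 0.790 CPM to 3226 CPM and OLIG2 did not exceed 3.57 CPM. SOX9 ran from 1.70 CPM to 430 CPM. The other markers of this list, NES, S100B, SOX2, FABP7, and PDGFRA, fell to 0 CPM in some libraries, as OLIG2 did. These are bulk libraries, in which fewer cells that use a gene and less RNA per cell cannot be told apart.

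**Figure D2:**
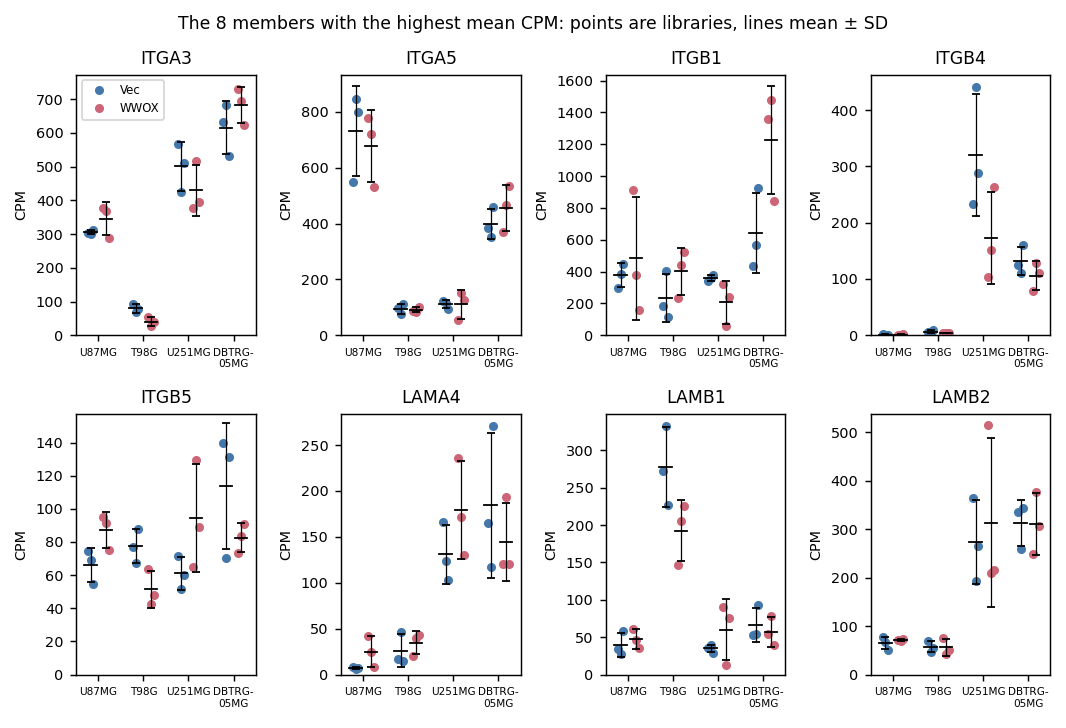
CPM (y axis, linear, from 0) of the 8 members with the highest mean CPM in “Vec” (blue) and “WWOX” (red) libraries of the 4 lines (x axis). Points are libraries and bars the mean ± SD of 3 libraries; LAMB1 was highest in T98G, ITGB4 in U251MG, and ITGA5 in U87MG, and in none of these 8 genes did the difference between variants pass the test in a line.

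Before the comparison of the variants, the targeted gene was checked. In U87MG, WWOX was at 33.9 to 40.1 CPM in “Vec” and at 61.0 to 66.0 CPM in “WWOX”, and in DBTRG-05MG at 20.4 to 22.2 CPM and 28.0 to 32.0 CPM, without overlap. In T98G (34.2 to 57.2 CPM and 45.1 to 61.8 CPM) and U251MG (31.4 to 36.8 CPM and 17.4 to 56.7 CPM) the groups overlapped. The log2FC were 0.66, 0.39, 0.38, and -0.01 in the order U87MG, DBTRG-05MG, T98G, and U251MG, none past the threshold (limma, adjusted p at least 0.137). A transcript of the lentivirus begins in vector sequence, so the tags on the WWOX gene need not include it, and these values cannot decide on the labels. The study itself reports a Western blot of extracted protein as its evidence that the transduction was efficient. “WWOX” is used here as the name that the labels give to a variant. Libraries 1 and 2 of U251MG “WWOX” lay furthest from the other replicates of their group (SD of the log2 differences 0.955 and 1.01), followed by library 2 of T98G “Vec” (0.768). Values without these libraries are given for some of the results below.

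In U87MG, 4 of the 26 members passed the test, 3 of which rose and 1 of which fell, where 3.2% of all genes passed (limma, 395 of 12327), 1.54% higher and 1.66% lower. ITGA11, LAMA1, and LAMA5 were higher in the “WWOX” variant, and ITGA6 was lower. LAMA1 had entered the test only through the variant in which it was high, so the share of members called has no support from it, though it also passed without a filter on low values. Over all 26 members, the median log2FC was 0.072, beside -0.00 over all genes.

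ITGA6, the alpha chain of laminin receptors (ENSG00000091409.16, chromosome 2, 172427354 to 172506459, + strand), was low in this line. It was at 1.99, 0.927, and 0.982 CPM in “Vec”, and each “WWOX” library had at most 3 tags, 0.184, 0.0679, and 0.169 CPM. The mean of “Vec” was 6.08 times the level of 3 tags per library. The log2FC, which depends on the pseudocount, was -1.52 (adjusted p = 0.0270 with limma). The call was lost without library 1 of “Vec” (adjusted p = 0.110) and without any of the 3 “WWOX” libraries (0.0654 to 0.112), and with a pseudocount of 1 (0.174), CPM as deposited (0.116), U87MG fitted alone (0.0566), replicate number as a block (0.0832), and limma-voom (0.0581). ITGA6 overlaps 3 genes on the opposite strand, ITGA6-AS1 and PDK1-AS1 among them, and whether the tags were counted by strand is not given in the sources used here. Other members overlap genes on the opposite strand too, LAMA1, LAMA5, LAMB1, ITGB4, and ITGAE among them.

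ITGA11, the collagen-binding chain (ENSG00000137809.17, chromosome 15, 68296532 to 68432163, - strand), went the other way. It was at 0.0710, 0, and 0.140 CPM in “Vec”, at most 3 tags per library, and at 5.75, 1.97, and 2.88 CPM in “WWOX”. The mean of “WWOX” was 16.2 times the level of 3 tags per library. The log2FC, which depends on the pseudocount, was 2.76 (adjusted p = 0.00700 with limma). The level of the “WWOX” libraries remained far below that of T98G, where both variants were between 21.6 and 59.1 CPM. Without library 1 of “WWOX” the adjusted p was 0.0585.

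The laminin alpha chains LAMA1 and LAMA5 rose in U87MG. LAMA1 (ENSG00000101680.15, chromosome 18, 6941742 to 7117797, - strand) was at 1.92, 0.773, and 0.631 CPM in “Vec” and at 6.0, 4.28, and 8.21 CPM in “WWOX”, with no overlap. Its log2FC was 2.06 (SE 0.42, adjusted p = 0.00419 with limma), and the median log2FC of the 177 genes tested on chromosome 18 was 0.28 above that of all genes in this line, whose part in the result was not tested. LAMA1 overlaps 2 genes on the opposite strand, and the part of their tags was not tested. LAMA5 (ENSG00000130702.15, chromosome 20, 62307955 to 62367312, - strand) was at 2.91, 2.63, and 4.28 CPM in “Vec” and at 7.59, 5.90, and 15.3 CPM in “WWOX”, again with no overlap. The log2FC was 1.29 (SE 0.33, adjusted p = 0.0292 with limma). Its call was lost without library 1 (adjusted p = 0.0783) or library 2 (0.155) of “Vec” or library 3 of “WWOX” (0.204), and it shares its position with ADRM1, LAMA5-AS1, and MIR4758. With U87MG fitted alone, the adjusted p of LAMA1 was 0.0884 and that of LAMA5 was 0.242.

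Beyond these, ITGA4, ITGB8, and LAMB3 were higher in every “WWOX” library of U87MG than in every “Vec” library, without passing the test. ITGA4, an alpha chain that binds fibronectin and VCAM1, was at 1.35, 0.695, and 1.26 CPM in “Vec” and at 3.37, 3.12, and 2.20 CPM in “WWOX” (log2FC 1.06, SE 0.41, adjusted p = 0.230). LAMB3 was at 13.5, 14.2, and 12.8 CPM in “Vec” and at 21.2, 17.8, and 19.4 CPM in “WWOX” (log2FC 0.45, adjusted p = 0.888). In all, 7 members did not overlap between the variants, 6 higher and 1 lower in “WWOX”, where 17.5% of all genes did not overlap. LAMA4 was at 8.66, 6.03, and 7.22 CPM in “Vec” and at 41.8, 24.5, and 8.05 CPM in “WWOX” (log2FC 1.37, adjusted p = 0.132); without library 3 of “WWOX” the values were 2.0 and 0.00809. Of the marker lists, the epithelial one summed to 0.923 to 1.54 CPM in “Vec” and to 0.245 to 0.847 CPM in “WWOX”, with KRT5 at 1 tag or fewer in every library, and its part in the value of LAMB3 was not tested.

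**Figure D3:**
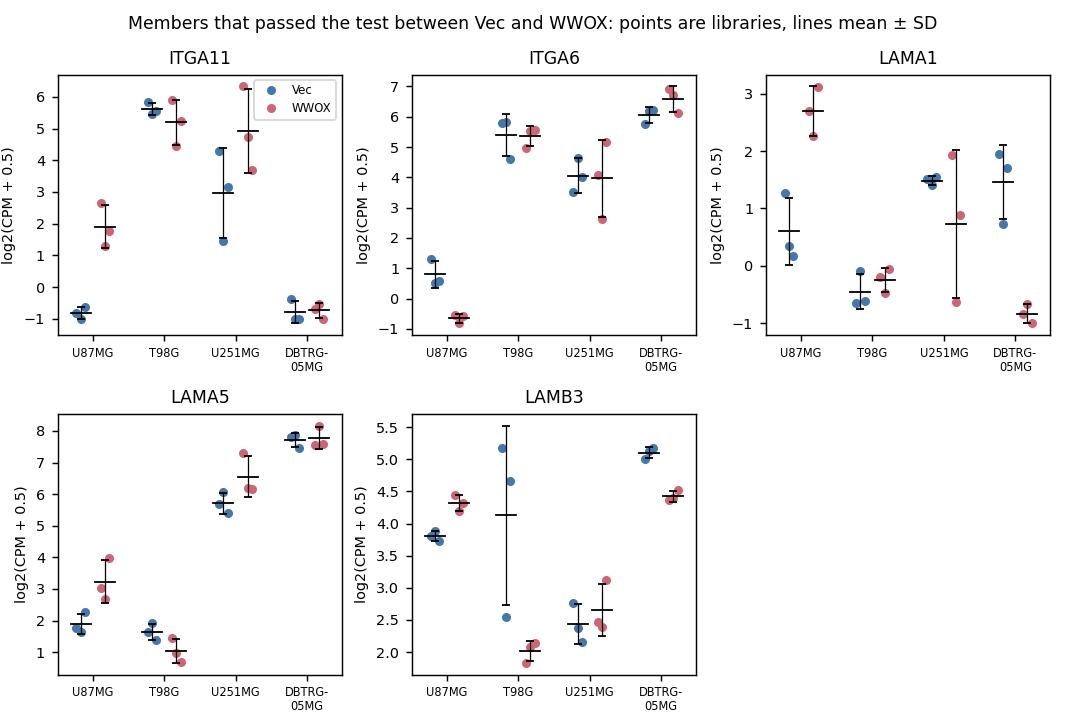
log2(CPM + 0.5) (y axis) of the 5 members described that passed the test between “Vec” (blue) and “WWOX” (red) in at least 1 line, in all 4 lines (x axis). Points are libraries and bars the mean ± SD of 3 libraries; LAMA1 was higher in “WWOX” in U87MG and lower in DBTRG-05MG.

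In T98G, LAMB3 alone passed the test and fell, where 1.14% of all genes passed, 0.333% higher and 0.803% lower. LAMB3, the beta chain of epithelial laminin (ENSG00000196878.15, chromosome 1, 209614870 to 209652425, - strand), was at 35.6, 5.33, and 24.9 CPM in “Vec” and at 3.07, 3.71, and 3.90 CPM in “WWOX”. The groups did not overlap, but library 2 of “Vec” was close to the “WWOX” libraries. The log2FC was -2.12 (SE 0.43, adjusted p = 0.0136 with limma). Without library 2 of “Vec”, which stood apart across genes, it was -2.99, and without library 1 or 3 of “Vec” it was -1.60 or -1.77, and the call was lost (adjusted p = 0.146 and 0.104), as it was without library 3 of “WWOX” (0.0666), in T98G alone (0.333), with replicate number as a block (0.0504), and with limma-voom (0.0596).

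The median log2FC of the 26 members was -0.24, beside -0.04 over all genes, 7 members were lower in every “WWOX” library than in every “Vec” library on the scaled values, and none was higher in every one. Of all genes, 16.2% did not overlap in either direction. Besides LAMB3, these were ITGA2, ITGA3, ITGB8, LAMA5, LAMB1, and LAMC1. ITGA3 was at 92.3, 67.9, and 78.5 CPM in “Vec” and at 53.8, 27.3, and 40.3 CPM in “WWOX”. Its log2FC was -1.01 (SE 0.28, adjusted p = 0.0890 with limma), and it was past the threshold on the deposited CPM (0.0257), without library 2 of “Vec” (0.0335), and without the 6 U251MG libraries (0.0317). Chromosome 17 moved in this line, in that the median of the 736 genes tested on chromosome 17, where ITGA3 and ITGB4 lie, was 0.31 below that of all genes in T98G, and its part in the value of ITGA3 was not tested.

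ITGB8 was at 11.6, 17.4, and 7.47 CPM in T98G “Vec” and at 4.0, 5.64, and 5.35 CPM in “WWOX” (log2FC -1.14, SE 0.37, adjusted p = 0.155). ITGA2, an alpha chain of collagen receptors, was at 21.0, 38.5, and 14.5 CPM and at 8.18, 14.5, and 9.31 CPM in the same order (log2FC -1.10, SE 0.37, adjusted p = 0.181). Neither passed the test. LAMB1, a chain with a higher level in T98G than in the other lines, was at 273, 333, and 227 CPM in “Vec” and 146, 206, and 226 CPM in “WWOX” (log2FC -0.53, adjusted p = 0.663). ITGB1 had the opposite sign, with 182, 401, and 116 CPM in “Vec” and 234, 442, and 525 CPM in “WWOX” (log2FC 0.90, adjusted p = 0.518), and its groups overlapped. In this line the 8 endothelial markers summed to 1.79 to 2.74 CPM in “Vec” and 0.558 to 0.726 CPM in “WWOX”, and the 11 glial and glioblastoma markers to 1832 to 2308 CPM and 1506 to 1581 CPM. The 8 epithelial markers summed to 213 to 367 CPM in “Vec” and 152 to 391 CPM in “WWOX”, so that the variants overlapped. The part of these lists in the differences of T98G, that of LAMB3 included, was not tested.

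In U251MG, no member passed the test with limma, where 0.316% of all genes passed. The same count of 0 was given by edgeR, limma-voom, and DESeq2, and 5 members had an unadjusted p under 0.05, a level reached by 11.5% of all genes. ITGB1 was at 339, 362, and 379 CPM in “Vec” and at 320, 59.6, and 240 CPM in “WWOX” (log2FC -1.13, SE 0.50, adjusted p = 0.391). ITGB4 was at 233, 441, and 288 CPM in “Vec” and at 104, 151, and 263 CPM in “WWOX” on the unscaled values (log2FC -0.96, SE 0.35, adjusted p = 0.273). On the scaled values both were lower in every “WWOX” library, and 10.4% of all genes did not overlap. Without library 2 of “WWOX”, which stood apart, the log2FC of ITGB1 was -0.62. Without library 1 of “WWOX”, which also stood apart, that of ITGB4 was -0.56.

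ITGA11 was at 19.1, 2.23, and 8.37 CPM in U251MG “Vec” and at 80.0, 26.2, and 12.4 CPM in “WWOX”, and the groups overlapped. The log2FC was 1.94 (SE 0.59, adjusted p = 0.179 with limma), and it passed the threshold without library 1 of “Vec” (0.0454) or without library 3 of “WWOX” (0.0320). It did not pass in the other 22 of the 24 fits that left out 1 library. Over these 24 fits the log2FC ran from 1.15, without library 2 of “Vec”, to 2.66. Chromosome 15, where ITGA11 lies, had a median 0.23 above that of all genes in this line, and its part in the value was not tested. LAMA5 was at 51.0, 66.4, and 41.5 CPM in “Vec” and at 158, 73.3, and 70.5 CPM in “WWOX” (log2FC 0.83, adjusted p = 0.326). Without library 1 of “WWOX” its log2FC was 0.54. LAMB1 passed the test only without library 2 of “WWOX”, where it was at 13.2 CPM beside 90.3 and 76.1 CPM in the other “WWOX” libraries (log2FC 0.36 with it and 1.00 without it, adjusted p = 0.799 and 0.0490).

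In DBTRG-05MG, LAMA1 alone passed the test, where 1.02% of all genes passed, and it fell, as 0.503% of all genes did. It was at 3.34, 1.16, and 2.77 CPM in “Vec” and at 0.0590, 0.130, and 0 CPM in “WWOX”, at most 3 tags per library. The mean of “Vec” was 12.6 times the level of 3 tags per library. The log2FC, which depends on the pseudocount, was -2.23 (adjusted p = 0.00483 with limma). The direction was opposite to that of U87MG, and the median of the genes of chromosome 18 was 0.17 above that of all genes here, whose part in the result was not tested. Without library 1 of “Vec” the adjusted p was 0.0553, and with DBTRG-05MG fitted alone it was 0.0519.

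LAMA2, the alpha chain of muscle and nerve laminins, was higher in every DBTRG-05MG “WWOX” library, with 4.52, 4.96, and 4.48 CPM in “Vec” and 10.7, 12.5, and 6.79 CPM in “WWOX”, but did not pass the test (log2FC 0.92, SE 0.36, adjusted p = 0.441). Only “WWOX” libraries reached 5 CPM for LAMA2, so it entered the test only through the variant in which it was high. LAMB3 was at 31.6, 34.4, and 35.8 CPM in “Vec” and at 20.1, 20.5, and 22.5 CPM in “WWOX” (log2FC -0.74, adjusted p = 0.775), again without overlap. ITGB1 was at 436, 568, and 926 CPM in “Vec” and at 1356, 1479, and 845 CPM in “WWOX” (log2FC 0.90, adjusted p = 0.750). In all, 5 members did not overlap on the scaled values, ITGB1 and LAMA2 higher and ITGA7, LAMA1, and LAMB3 lower in “WWOX”, where 19.7% of all genes did not. This count has no support from LAMA2, given how that gene entered the test. The epithelial markers, KRT18 and KRT8 having the most tags among them, summed to 930 to 1293 CPM in “Vec” and 508 to 757 CPM in “WWOX” in this line, and their part in the value of LAMB3 was not tested.

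No member passed the test in the mean of the 4 lines, where 1.78% of all genes passed. This count was 0 with limma, edgeR, and limma-voom and 1 with DESeq2, and 7 members had an unadjusted p under 0.05 (15.4% of all genes). ITGA11 came closest, with a mean log2FC of 1.08 (SE 0.30, adjusted p = 0.0666).

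The differences of log2FC among the lines were then tested directly, and 2 members passed, where 3.5% of all genes did (limma F test). LAMA1 was tested only because of its level in “WWOX” of U87MG. LAMA1 (adjusted p = 0.000362) had log2FC of 2.06, 0.23, -0.83, and -2.23 in U87MG, T98G, U251MG, and DBTRG-05MG, of which the last rests on a group at 3 tags or fewer. This difference among lines passed in each of the alternatives run for it and without any single library. LAMB3 (adjusted p = 0.0447) had log2FC of 0.45, -2.12, 0.21, and -0.74, and its difference was past the threshold in 4 of the 24 fits that left out 1 library, with adjusted p from 1.17e-06, without library 2 of T98G “Vec”, to 0.140. It was also lost with no filter on low values (0.0578), a mean of at least 5 CPM (0.0672), the replicate block (0.117), and limma-voom (0.0988).

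**Figure D4:**
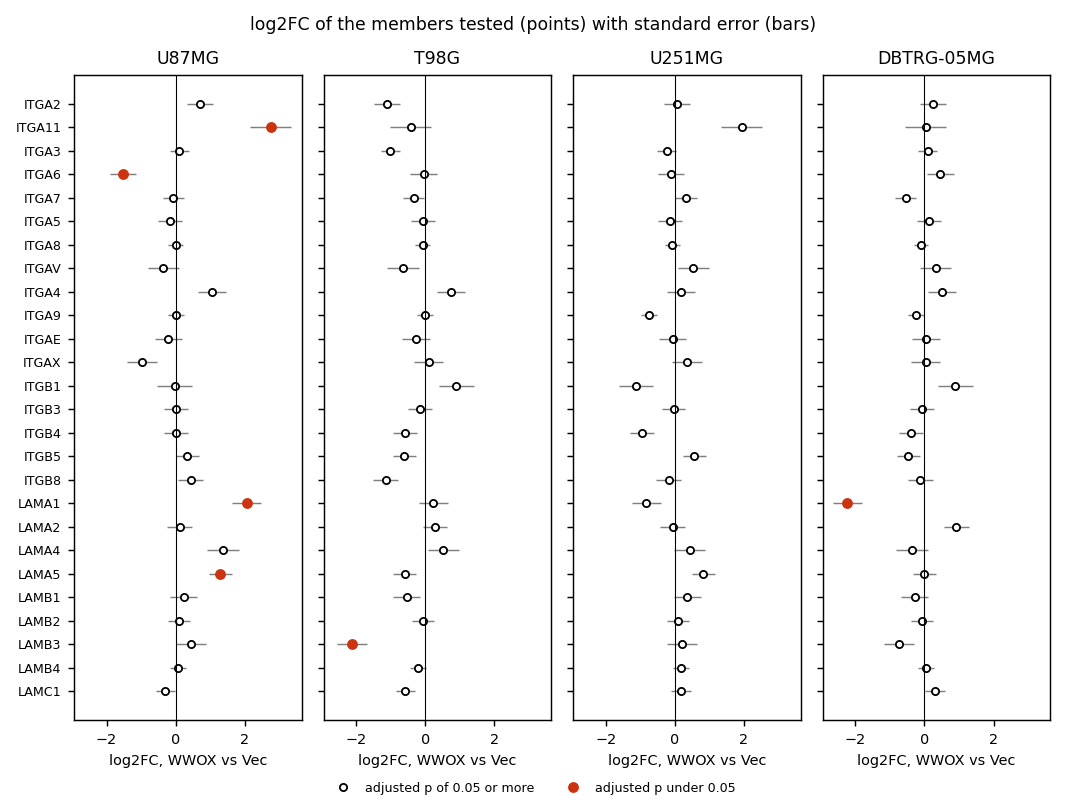
log2FC of “WWOX” versus “Vec” (x axis) with its standard error for each of the 26 members tested (y axis), one panel per line. Filled red points passed the test (adjusted p under 0.05), 4 in U87MG, 1 each in T98G and DBTRG-05MG, and 0 in U251MG, and open points did not; the values of ITGA6 and ITGA11 in U87MG and of LAMA1 in DBTRG-05MG rest on a group at 3 tags or fewer and depend on the pseudocount.

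ITGA5, LAMB2, and ITGB5 were among the 8 members with the highest mean CPM. ITGA5 had log2FC of -0.17, -0.06, -0.15, and 0.13 in U87MG, T98G, U251MG, and DBTRG-05MG (SE 0.35 in each). LAMB2 had 0.09, -0.06, 0.10, and -0.08 (SE 0.32), and ITGB5 had 0.34, -0.60, 0.57, and -0.47 (SE 0.33). In U87MG, LAMB2 was at 76.7, 67.1, and 51.4 CPM in “Vec” and 71.4, 69.2, and 73.6 CPM in “WWOX”, and ITGA5 at 549, 845, and 802 CPM and 778, 720, and 532 CPM. None of the 3 had a call in a line, and differences of this size were not detectable with 3 libraries per group.

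The proteins that work with these chains were examined as a list of 41 genes for adaptors at the inner side of integrins, such as talins and kindlins, ligands such as fibronectin, and other basement membrane proteins. Of these, 40 were tested. In U87MG 2 passed the test and both rose (median log2FC of the list 0.02), where 3.2% of all genes passed, 1.54% higher. In T98G 1 rose (median -0.15), where 1.14% of all genes passed, 0.333% higher. In U251MG and DBTRG-05MG none passed (medians -0.06 and 0.06), where 0.316% and 1.02% of all genes did. In the same order of lines, 11, 5, 4, and 5 genes of the list had an unadjusted p under 0.05 with limma. This level was reached by 11.5%, 11.5%, 11.5%, and 7.63% of all genes. FERMT3, the kindlin known from blood cells, which binds the tails of beta chains, was at 9.37, 7.42, and 7.51 CPM in U87MG “Vec” and at 27.5, 46.2, and 37.0 CPM in “WWOX” (log2FC 2.04, SE 0.28, adjusted p = 3.38e-05 with limma). It also rose in T98G at a low level, from 0.351, 0.877, and 0.934 CPM to 3.25, 2.08, and 2.97 CPM (log2FC 1.47, SE 0.28, adjusted p = 0.00716). No gene of the list passed in T98G when this line was fitted alone, with replicate number as a block, or without library 1 of “Vec” or library 3 of “WWOX”. In U87MG the leukocyte markers summed to 6.53 to 16 CPM in “Vec” and to 6.18 to 8.30 CPM in “WWOX”, so that the variants overlapped.

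AGRN, agrin, a proteoglycan that binds laminin in basement membranes, was at 30.9, 25.4, and 28.8 CPM in U87MG “Vec” and at 107, 86.1, and 59.5 CPM in “WWOX” (log2FC 1.46, SE 0.37, adjusted p = 0.0255 with limma). The groups did not overlap in U87MG. In the other lines the log2FC of AGRN was 0.62 in U251MG, -0.11 in T98G, and -0.27 in DBTRG-05MG, none past the threshold. DESeq2 called 6 genes of the list in U87MG and 1 in U251MG, where it called 483 and 162 of the 12327 genes tested. Without library 2 of U251MG “WWOX”, limma called 5 genes of the list in U251MG, where it called 557 of 12311 genes.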

How the data were processed

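CAGE-Seq tags of 24 libraries (4 cell lines, “Vec” and “WWOX” variants, 3 libraries each) were taken as deposited. Per the labels, the authors aligned reads to hg38 with STAR, counted tags with SAMtools in R, and deposited CPM per gene, scaled to 1000000 tags per library. The gene annotation, the strand setting, and the version of STAR are not given in the sources used here, which list limma 3.42. Every value was a whole number of tags within 0.01 of a tag (100.0% in each library), so the tags were recovered. Of the genes that matched, 1 is not reported here. The members, role lists, partner list, and marker lists were chosen with earlier results of these data known, and motifs were chosen after the calls were seen.

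CPM were scaled by TMM (edgeR), 0.5 was added, and log2 values of the 12327 genes that reached 5 CPM in a library or more were fitted in limma with trend over 8 groups (16 residual degrees of freedom). Fold changes are therefore on the log2(CPM + 0.5) scale, which understates those of low genes. Values of p are two-sided and adjusted by Benjamini-Hochberg over all genes tested, with a threshold of 0.05. With 1 library left out, a group of 2 shares the spread of the others. Where every library of a group had at most 3 tags, the mean CPM of the other group is given as a multiple of 3 tags per library. Single libraries can lie below that multiple.

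Values in every library are given for members past the threshold in a line, the mean, or the differences; for at most 5 members per line with an unadjusted p under 0.05 whose variants did not overlap; and for the 8 with the highest mean CPM. Partner genes were named where they passed, at most 3 each way per line. Values of named members in further lines were added after they were seen. Positions are from the GENCODE annotation of GRCh38 in the reference used here, and promoters from RefSeq (GRCh38.p14). The replicate numbers are not stated to mark a shared batch. There were 11 alternatives that kept all libraries, with edgeR, limma-voom, and DESeq2 on recovered tags among them, each of the 24 libraries was left out in turn, and a fit without the 6 U251MG libraries was chosen after seeing the data. The fit was tested on simulated data. R 4.3.3, limma 3.58.1, edgeR 4.0.16, and DESeq2 1.42.0 were used.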

Additional observations from a re-analysis of the deposited data

Results flagged for a closer look

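The effect of the variant differed among the 4 lines, by the test of the difference itself, for 2 members. The adjusted p of the differences of log2FC was 0.000362 for LAMA1, with a rise in U87MG and a fall in DBTRG-05MG. It was 0.0447 for LAMB3, with a fall in T98G, and this value was past the threshold in 4 of the 24 fits that left out 1 library and in 6 of 10 alternatives. LAMA1 was tested only because of its level in “WWOX” of U87MG.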

How the results depend on the processing

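Each of these counts was taken again under 11 alternatives and without each of the 24 libraries, and the alternative settings below differ from the fit above in 1 choice, except that edgeR, limma-voom, and DESeq2 change the input and the model together and DESeq2 also the scaling. In U87MG, 2 members were called with limma-voom, 1 with a separate model per line, and 2 to 4 when a library was left out, with 2 reached without library 1 of “Vec” or of “WWOX”. In T98G, 2 were called with CPM as deposited and without the 6 U251MG libraries, 0 with the separate model and limma-voom, and 0 to 2 when a library was left out. In U251MG the count was 0 to 1 when a library was left out. In DBTRG-05MG it was 0 with a mean of at least 5 CPM, a filter that LAMA1 did not pass, and with the separate model, and 0 to 1 when a library was left out. For the mean of the lines it was 1 with a pseudocount of 0.1 and with DESeq2, and 0 to 2 when a library was left out, with 2 reached without library 2 of T98G “Vec” or of U251MG “WWOX”. For the differences among lines it was 5 with a pseudocount of 0.1 and with DESeq2, 0 with a mean of at least 5 CPM, 1 with no filter and with limma-voom, and 1 to 3 when a library was left out. The partner genes called in U87MG were 5 with a pseudocount of 0.1, 6 with DESeq2, and 1 to 4 when a library was left out. In T98G they were 0 with the separate model, 2 with DESeq2, and 0 to 1 when a library was left out, and in U251MG 1 with DESeq2 and 0 to 5 when a library was left out. With the mean filter the members at low levels were not tested, and the separate model had fewer samples and gives no value across lines. The cause of the other shifts was not tested. The counts of members that differed among “Vec” groups stayed within 1.5 times.

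Replicate number as a block within each line changed the count of members called to 0 in T98G (LAMB3, adjusted p = 0.0504), to 3 in U87MG (ITGA6, 0.0832), and to 1 for the mean of the lines, and the count of partner genes to 0 in T98G. Same-numbered “Vec” and “WWOX” libraries deviated with correlations from -0.546 to 0.510, not every library correlated best with its own number, and the samples share only a number. Numbers 1 and 2 correlated positively in U87MG and T98G. In DBTRG-05MG all same-numbered correlations were negative (-0.528, -0.546, and -0.240). There, “Vec” 1 with “WWOX” 3, 2 with 1, and 3 with 2 had 0.637, 0.613, and 0.633. In U251MG, “Vec” 2 with “WWOX” 3 had 0.701. The block by number thus need not join libraries that deviated alike, and no other pairing was fitted.

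Counts over all genes moved more. With no filter they were 618 in U87MG, 271 in T98G, 395 in DBTRG-05MG, and 114 in U251MG, beside 395, 140, 126, and 39. With a mean of at least 5 CPM they were 198, 74, 51, and 14 in this order, with the separate model 213, 0, 38, and 3, and with DESeq2 483, 273, 129, and 162. With edgeR they were 328, 113, 49, and 14, with limma-voom 352, 97, 100, and 23, and in U251MG and DBTRG-05MG 23 and 78 with a pseudocount of 0.1. With the block they were 63 in T98G, 76 in DBTRG-05MG, and 23 in U251MG, and without the 6 U251MG libraries 219 in T98G. For the mean of the lines they were 220, beside 385 with no filter, 95 with a mean of at least 5 CPM, 144 with the block, and 101 with edgeR, and for the differences 431, beside 833, 172, and 239 under the first 3 of these and 802 with DESeq2. Leaving out a library gave 253 to 491, 45 to 394, 74 to 149, and 13 to 557 in the 4 lines, 156 to 849 for the mean, and 306 to 647 for the differences.

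Signs changed only for log2FC that did not pass the test. Without a library, log2FC in U87MG ran from -0.64 to 0.58 for ITGB1, -0.33 to 0.17 for ITGB4, -0.33 to 0.44 for LAMA2, and -0.13 to 0.22 for LAMB2. In T98G it ran from -0.36 to 0.15 for ITGA6, -0.29 to 0.15 for ITGA5, and -0.32 to 0.11 for LAMB2. In U251MG it ran from -0.61 to 0.33 for ITGA6, -0.46 to 0.066 for ITGB8, -0.19 to 0.37 for ITGA2, -0.37 to 0.15 for LAMA2, -0.67 to 0.40 for ITGA5, -0.24 to 0.41 for LAMB2, -0.10 to 0.58 for ITGA4, and -0.051 to 1.00 for LAMB1. In DBTRG-05MG it ran from -0.18 to 0.14 for LAMA5, -0.065 to 0.23 for ITGA11, -0.56 to 0.34 for ITGB8, -0.070 to 0.21 for ITGA3, -0.055 to 0.31 for ITGA5, and -0.21 to 0.10 for LAMB2. With edgeR and DESeq2 it was 0.072 and 0.059 for ITGA6 in U251MG, 0.035 and 0.025 for LAMA2 in U251MG, 0.084 and 0.11 for ITGA5 in U251MG, 0.27 and 0.26 for ITGB1 in U87MG, and 0.00842 and 0.00495 for LAMA5 in DBTRG-05MG. With CPM as deposited it was 0.060 for LAMA5 in DBTRG-05MG and 0.030 for ITGB1 in U87MG, with limma-voom 0.00256 for LAMA5 in DBTRG-05MG and -0.063 for ITGB4 in U87MG, and for the latter -0.023 with a pseudocount of 0.1 and -0.00123 with median of ratios scaling. Differences at or below 3 tags per library, up to 0.279 CPM, were not detectable at this depth.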
